A study of Mus musculus with 4 samples.

Results

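Genes of the matricellular group were followed through cancer-associated fibroblasts (CAF) of a mouse melanoma model. They were taken by name, as 10 of the 33696 genes in the count tables: Postn, Tnc, Thbs1, Thbs2, Sparc, Spp1, Fn1, Ccn1, Ccn2 and Cthrc1. For each gene the level, the share of cells with the transcript and the co-detection with the others were computed over 21098 kept fibroblasts of 4 single-cell libraries.

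B16-F1 melanoma cells carrying ovalbumin (B16-OVA, 400000 cells) were injected into the peritoneal cavity of Cxcl13-cre-tdTomato R26R-eGFPflox mice, and fibroblasts were sorted from the tumors on day 14 as CD45-neg CD31-neg PDPN-high cells. All 4 populations came from tumors of this one genotype, homozygous for eGFPflox, on a C57BL/6 or mixed C57BL/6 and 129 background. In this model tdTomato reports the present activity of the Cxcl13 promoter, and eGFP marks cells in which the Cre recombinase driven by that promoter has acted at some time, together with their progeny. The populations were the double-negative CAF (tdTomato-neg eGFP-neg), the tdTomato+ eGFP-neg CAF, the double-positive CAF (tdTomato+ eGFP+) and the tdTomato-neg eGFP+ CAF. Mice of both sexes were used, their ages and the number of animals behind each library were not given in the sources used here, and transcripts of male and of female cells were present in every library. Tumor cells were not removed by a marker of their own, since the sort relied on their lower PDPN.

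Each population was 1 library of the 10x Genomics 3′ assay, which counts unique molecular identifiers (UMIs). No replicate error or p-value can therefore be given for any difference between populations. Levels are UMIs per 1000000 UMIs (CPM), pooled over the cells of a library, and the brackets after them are 95% exact Poisson intervals, which cover counting error only. A gene was called different between pooled groups of cells when the CPM differed at least 2-fold, among genes with at least 10 CPM on either side. Shares of cells are given after each cell was thinned to 1000 UMIs, so that cells of unequal depth were compared at equal depth. In every such comparison the differences describe these libraries, and fewer cells of a type or less RNA per cell cannot be told apart in the pooled level of a whole library.

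Matricellular proteins are secreted into the extracellular matrix, where they regulate how cells attach to and signal from it more than they build it. Most are scarce in resting adult tissue and are made anew in development, wound repair, fibrosis and tumor stroma. They act through integrins, syndecans, CD44 and CD47 on the cell surface, and by holding growth factors such as TGF-beta in the matrix. Fibronectin is strictly a structural glycoprotein, and is taken with them here because its fibrils are the scaffold on which periostin and tenascin C are placed.

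The 250 bases before the transcription start of 5 members are shown, for Postn, Tnc, Thbs2 and Spp1 because they were at least 2-fold higher in matrix-like than in mesothelial-like cells of every library, and for Ccn1 because it did not pass that limit in every library. The sequences are from RefSeq on GRCm38.p6, an older build than the GRCm39 genome of the count tables, which give no coordinates. RefSeq promoters were matched for 6 of the 10 members, with no entry found for Thbs1, Fn1, Ccn2 and Cthrc1. Postn, Tnc and Spp1 each had more than 1 start listed, and 1 is shown for each. Capitals mark matches, on either strand, to TATAAA (the TATA box, in 12.4% of all 32851 promoter windows of this length), CATTCC (the core bound by TEAD factors, in 12.6%), TGTGGT (the core bound by RUNX factors, in 14.0%) or TGANTCA (the AP-1 site, in 6.75%). None of the matches overlapped another.
Postn, chr3:54360857-54361106, plus strand: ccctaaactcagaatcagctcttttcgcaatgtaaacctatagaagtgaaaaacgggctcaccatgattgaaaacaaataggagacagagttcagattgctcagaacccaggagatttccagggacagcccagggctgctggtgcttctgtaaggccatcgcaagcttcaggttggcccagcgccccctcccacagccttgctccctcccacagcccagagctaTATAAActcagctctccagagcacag
Tnc, chr4:64047016-64047265, minus strand: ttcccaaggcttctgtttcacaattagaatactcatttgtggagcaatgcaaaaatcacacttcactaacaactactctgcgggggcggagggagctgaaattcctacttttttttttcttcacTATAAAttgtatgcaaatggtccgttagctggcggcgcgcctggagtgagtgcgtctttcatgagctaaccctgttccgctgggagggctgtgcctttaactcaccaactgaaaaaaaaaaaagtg
Thbs2, chr17:14694263-14694512, minus strand: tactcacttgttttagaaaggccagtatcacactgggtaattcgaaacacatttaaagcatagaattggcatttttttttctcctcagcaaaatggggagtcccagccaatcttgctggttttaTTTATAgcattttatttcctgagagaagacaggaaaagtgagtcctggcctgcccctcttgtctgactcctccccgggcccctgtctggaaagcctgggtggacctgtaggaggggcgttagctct
Spp1, chr5:104434861-104435110, plus strand: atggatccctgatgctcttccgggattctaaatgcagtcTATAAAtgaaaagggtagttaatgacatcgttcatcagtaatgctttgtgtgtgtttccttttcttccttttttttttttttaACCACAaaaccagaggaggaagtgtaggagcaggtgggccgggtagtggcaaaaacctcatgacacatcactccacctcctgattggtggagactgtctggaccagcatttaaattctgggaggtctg
Ccn1, chr3:145649986-145650235, minus strand: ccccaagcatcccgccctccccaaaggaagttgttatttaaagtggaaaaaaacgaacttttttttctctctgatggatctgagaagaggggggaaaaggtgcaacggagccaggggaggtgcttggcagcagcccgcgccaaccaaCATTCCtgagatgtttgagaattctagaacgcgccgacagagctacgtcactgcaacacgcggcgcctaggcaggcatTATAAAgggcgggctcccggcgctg
TATAAA began 26 bases before the start in Postn and 25 bases before it in Ccn1. In Tnc it began 126 bases and in Spp1 211 bases before the start, and in Thbs2 its reverse complement TTTATA began 126 bases before the start. Ccn1, a textbook target of the YAP and TEAD factors, held CATTCC 103 bases before the start, and Spp1 held ACCACA, the reverse complement of TGTGGT, 128 bases before it. The Sparc window held none of these matches, nor did the other listed windows of Postn and Spp1, which are not shown. In the other Tnc window TATAAA began 205 bases before the start. A match is a description of the letters and not a site shown to be used.

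Of 24489 barcodes, 22691 passed the limits on genes and mitochondrial UMIs, and 21098 were kept as fibroblasts without Ptprc or Pax3 UMIs: 9866 double-negative, 4634 tdTomato+ eGFP-neg, 853 double-positive and 5745 tdTomato-neg eGFP+ cells. The median depth was 5776 to 9118 UMIs per cell, lowest in the double-negative library. Clustering without the members and the gene lists gave 7 clusters, named only from marker genes. These naming markers were not held out of the clustering. Mesothelial-like cells numbered 5525, matrix-like 4651, cycling 4616, hypoxic-inflammatory-like 4572 and universal-like 1466. An immune-like cluster of 141 cells and a melanoma-like cluster of 127 cells, 116 of them in the double-negative library, were left in the whole-library values. The universal-like cluster was shallow, at 0.338 of the median depth of its libraries, and none of its own markers was among its 10 leading genes. The same held for the matrix-like cluster, led by Mfap4, Smim41 and Ptx3, in which 6 of its 8 markers were at least 2-fold higher and whose median depth was 1.19 times that of its libraries. The hypoxic-inflammatory-like cluster was led by Nos2, Ereg and Serpinb2. Mesothelial-like cells, kept by the collagen gate, were led by Prg4, Krt18 and Gpm6a, with 12 of their 13 markers at least 2-fold higher. Barcodes found in more than 1 library numbered 57.

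The libraries differed in their mix of classes and of sexes, which stands beside every whole-library value below. Matrix-like cells were 36.3% of double-negative CAF, 12.0% of tdTomato+ eGFP-neg, 11.5% of double-positive and 7.24% of tdTomato-neg eGFP+ CAF. Hypoxic-inflammatory-like cells were 6.49%, 49.8%, 47.1% and 21.3% in the same order, and mesothelial-like cells 24.6%, 14.2%, 19.1% and 39.7%. Among cells that held either Xist or a Y-linked transcript but not both, those with Xist were 56.2%, 66.0%, 64.7% and 43.7%, and by class they ranged from 27.3% in mesothelial-like to 98.4% in universal-like cells. The whole-library comparisons were therefore also made in Xist-only and in Y-only cells, and calls that changed are given beside them.

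Periostin, tenascin C, osteopontin, Cthrc1, Ccn2 and thrombospondin 2 were the members that set matrix-like cells apart. In each of the 4 libraries these 6 of the 10 members were at least 2-fold higher in matrix-like than in mesothelial-like cells, where 6.9% of all 7865 genes tested passed the same rule, and 0 members were at least 2-fold lower throughout, where 5.14% of genes were. The members were kept out of the genes used for clustering, but the clusters were made from the same cells, so these values describe the classes and carry no test. The median log2 ratio of the 10 members was 3.38, against 0.04 over all genes.

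**Figure D1:**
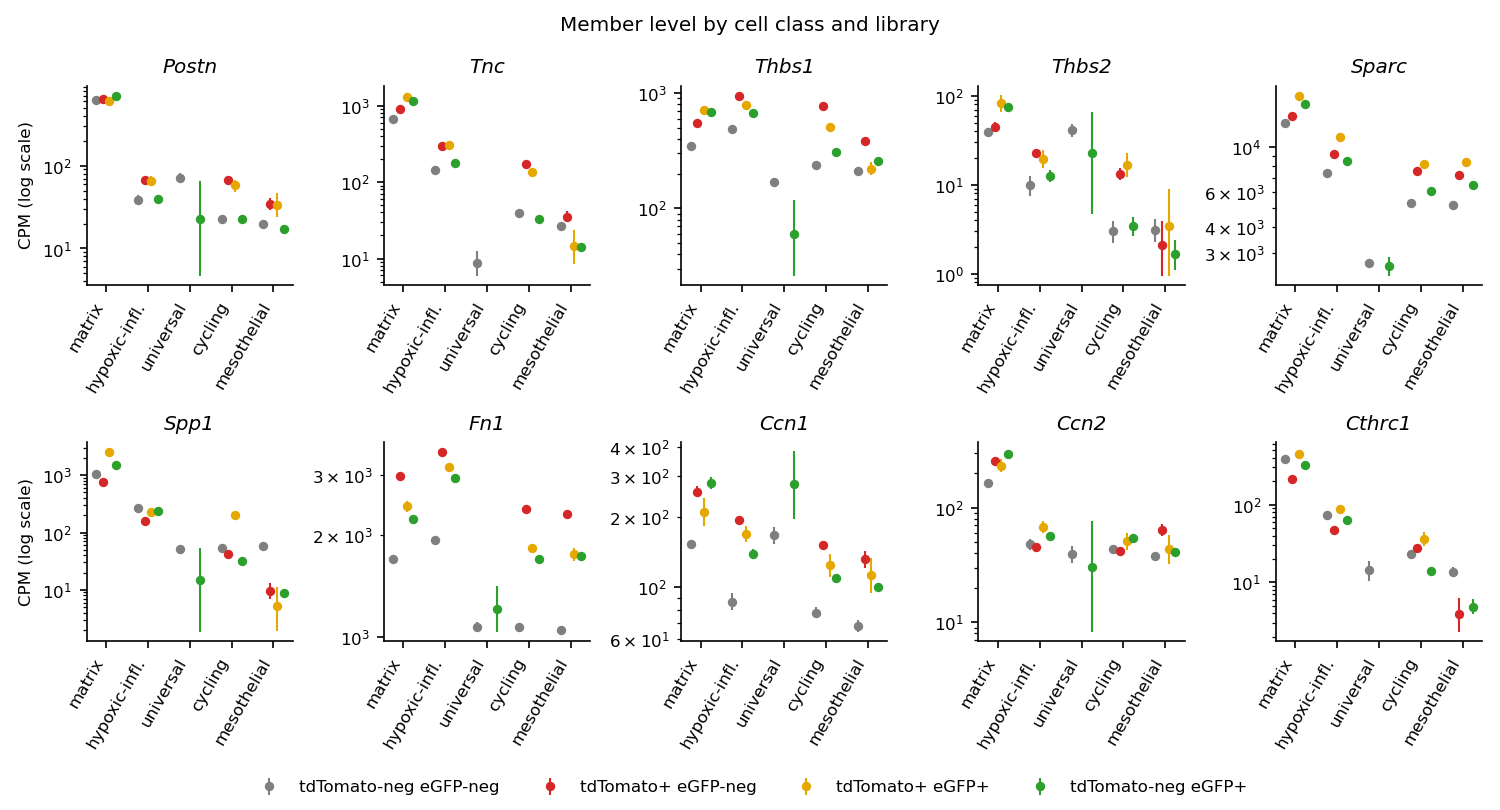
Level of each member (CPM, log axis) in 5 classes of the kept cells, 1 point for each library with its 95% Poisson interval. Groups of fewer than 50 cells and groups with 0 UMIs are left out. Postn, Tnc, Thbs2, Spp1, Ccn2 and Cthrc1 lie higher in matrix-like than in mesothelial-like cells of every library, while Fn1 is highest in hypoxic-inflammatory-like cells.

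Periostin (Postn, ENSMUSG00000027750) binds fibronectin, tenascin C and collagen and promotes collagen cross-linking. In matrix-like cells its level was 613 CPM in double-negative, 639 in tdTomato+ eGFP-neg, 597 in double-positive and 689 in tdTomato-neg eGFP+ CAF. In mesothelial-like cells it was 20.0, 34.3, 33.9 and 17.1 CPM in the same order, so that no library overlapped the other class. The log2 ratio between the classes was 4.14 to 5.33. Hypoxic-inflammatory-like cells held 38.7 to 68.0 CPM and universal-like cells of the double-negative library 71.0 CPM, both far below the matrix-like cells.

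Tenascin C (Tnc, ENSMUSG00000028364) is a large glycoprotein that loosens the attachment of cells to fibronectin. Its level in matrix-like cells was 667, 893, 1302 and 1155 CPM in double-negative, tdTomato+ eGFP-neg, double-positive and tdTomato-neg eGFP+ CAF. In mesothelial-like cells the same libraries had 26.5, 35.4, 14.8 and 14.2 CPM. Unlike Postn, Tnc also stood well above the mesothelial-like level in hypoxic-inflammatory-like cells, with 144, 301, 305 and 179 CPM. The universal-like cells of the double-negative library had 8.83 CPM.

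Osteopontin (Spp1, ENSMUSG00000029304) is a phosphorylated ligand of integrins and CD44. In matrix-like cells it was at 1053, 747, 2517 and 1500 CPM in the 4 libraries in the same order, and in mesothelial-like cells at 58.2, 9.73, 5.21 and 8.81 CPM. The libraries stood far apart, with the double-positive library highest among matrix-like cells and lowest among mesothelial-like cells. Spp1 was carried by few cells. After thinning, the tenth of matrix-like cells richest in Spp1 held 92.0%, 95.6%, 75.0% and 79.3% of its UMIs, against 19.5% to 21.9% for Sparc, and a single cell gave up to 80 of 1000 UMIs to Spp1.

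Spp1 is also a gene of tumor and myeloid cells, and was present among the cells left out as non-fibroblasts. The 92 cells with Pax3, a melanocyte-lineage factor, and with fewer collagen UMIs than the fibroblast gate asks had 559 CPM of Spp1, and 130 such cells with Ptprc, the gene of CD45, had 352 CPM. Over the matrix-like cells the summed level of 7 melanoma markers was 29.1 to 55.9 CPM and of 9 immune markers 33.9 to 50.1 CPM in the 4 libraries. Both sums were lowest in the double-positive library, where Spp1 was highest and 4 of the 7 melanoma markers were at 0. Whether some Spp1 UMIs came from RNA of other cells was not tested.

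Cthrc1 (ENSMUSG00000054196), a secreted collagen triple helix repeat protein that marks activated fibroblasts, was at 384, 215, 441 and 319 CPM in matrix-like cells. In mesothelial-like cells it was at 13.6, 3.94 and 4.88 CPM in the double-negative, tdTomato+ eGFP-neg and tdTomato-neg eGFP+ libraries. The double-positive mesothelial-like cells had 0 UMIs, and against a floor of 3 counts the log2 ratio there was at least 7.40. The other libraries gave 4.82, 5.77 and 6.03.

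Thrombospondin 2 (Thbs2, ENSMUSG00000023885) binds CD36 and CD47 and limits vessel growth and matrix metalloprotease 2. It was scarce but restricted, with 39.1, 44.4, 82.4 and 74.5 CPM in matrix-like cells and 1.67 to 3.47 CPM in mesothelial-like cells. It was the one member of the 6 whose level in universal-like cells of the double-negative library, 40.8 CPM, reached that of the matrix-like cells of the same library. Ccn2 (ENSMUSG00000019997), also known as connective tissue growth factor, was at 162, 253, 232 and 292 CPM in matrix-like cells and at 37.6, 63.5, 43.4 and 41.2 CPM in mesothelial-like cells. Its log2 ratio, 2.00 to 2.83, was the smallest of the 6.

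The other 4 members were spread over all classes. Sparc (ENSMUSG00000018593), a collagen-binding glycoprotein needed for fibril assembly, was found after thinning in 95.9% to 98.7% of the cells of each library. Its level was 13059, 14061, 17667 and 16271 CPM in matrix-like cells and 5166, 7260, 8377 and 6484 CPM in mesothelial-like cells, a log2 ratio of 0.95 to 1.34. Fibronectin (Fn1, ENSMUSG00000026193) had 1690, 2970, 2425 and 2222 CPM in matrix-like cells against 1048, 2304, 1753 and 1734 CPM in mesothelial-like cells, and its log2 ratio of 0.36 to 0.69 was below 1 in every library. Fn1 was highest in hypoxic-inflammatory-like cells, at 1923, 3497, 3175 and 2930 CPM.

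Thrombospondin 1 (Thbs1, ENSMUSG00000040152) activates latent TGF-beta and blocks vessel growth through CD36 and CD47. Its level in hypoxic-inflammatory-like cells was 487, 949, 791 and 673 CPM, against 350, 549, 715 and 679 CPM in matrix-like and 211, 387, 221 and 259 CPM in mesothelial-like cells. Hypoxic-inflammatory-like cells were highest in the double-negative and tdTomato+ eGFP-neg libraries. In the tdTomato-neg eGFP+ library the matrix-like and hypoxic-inflammatory-like cells had overlapping intervals, 679 CPM [654-704] and 673 CPM [659-687], as they had in the double-positive library, 715 CPM [664-768] and 791 CPM [764-819]. Ccn1 (ENSMUSG00000028195), the sister of Ccn2 and an early response gene, was at 154, 258, 211 and 281 CPM in matrix-like, 86.7, 195, 170 and 139 CPM in hypoxic-inflammatory-like and 68.2, 132, 113 and 99.9 CPM in mesothelial-like cells. In the universal-like cells of the double-negative library Ccn1 was at 167 CPM, close to the matrix-like cells of that library.

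Tnc, Thbs1, Spp1 and Cthrc1, 4 of 10 members, were at least 2-fold higher in hypoxic-inflammatory-like than in mesothelial-like cells of every library, where 1.97% of all genes tested passed the same rule. Among these, Spp1 was at 266, 161, 226 and 240 CPM in hypoxic-inflammatory-like cells, and Cthrc1 at 72.9, 47.0, 87.3 and 63.3 CPM, against 0 UMIs in the double-positive mesothelial-like cells. Thbs2 was at 9.86 and 3.08 CPM in the double-negative library, under the 10 CPM limit on both sides, and was not counted. Postn did not pass in the double-negative, tdTomato+ eGFP-neg and double-positive libraries, where its levels were 38.7, 68.0 and 65.8 CPM in hypoxic-inflammatory-like cells.

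At 1000 UMIs per cell the median cell held transcripts of 3 of the 10 members in matrix-like and in hypoxic-inflammatory-like cells, and of 2 in cycling, mesothelial-like and universal-like cells. At least 4 members were found in 40.4% of matrix-like, 20.9% of hypoxic-inflammatory-like, 7.14% of cycling, 3.57% of mesothelial-like and 2.93% of universal-like cells. In matrix-like cells the 10 members together made up 1.82%, 2.06%, 2.62% and 2.35% of all UMIs in double-negative, tdTomato+ eGFP-neg, double-positive and tdTomato-neg eGFP+ CAF. The double-negative cells were thus the lowest of the 4 within that class. Over all kept cells the shares were 1.15%, 1.39%, 1.51% and 1.06%.

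In matrix-like cells thinned to 1000 UMIs, Postn was found in 35.4%, 33.5%, 38.1% and 41.2% of double-negative, tdTomato+ eGFP-neg, double-positive and tdTomato-neg eGFP+ cells. The share was thus nearly even, as was its level. Tnc was found in 28.3%, 30.8%, 56.7% and 50.1%, and Spp1 in 16.4%, 13.0%, 33.0% and 27.4%, so both eGFP+ libraries had more cells with either transcript than both eGFP-neg libraries. Cthrc1 was found in 24.4%, 15.2%, 22.7% and 22.3%. In mesothelial-like cells the shares were 1.19% to 3.95% for Postn, 1.15% to 3.00% for Tnc, 0% to 2.37% for Spp1, 0% to 1.16% for Cthrc1 and 0% to 0.632% for Thbs2, across the 4 libraries.

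Cells that should lack the transcripts were read for free RNA, but those used here were chosen for little collagen RNA. They can therefore not set the highest level that free RNA reaches. In 91 thinned cells with Pax3 and little collagen, Postn was found in 1.10% and Tnc, Thbs2, Ccn2 and Cthrc1 in 0%, at a median of 14407 UMIs before thinning. In 115 thinned cells with Ptprc and little collagen, at a median of 2922 UMIs, Postn was found in 0.870% and Tnc, Thbs2, Ccn2 and Cthrc1 in 0%. Thbs1, Spp1, Sparc and Fn1 were found in 13.9%, 13.0%, 18.3% and 26.1% of the cells with Ptprc. In the cells with Pax3 they were found in 0%, 30.8%, 17.6% and 6.59%. Whether these were free RNA or the cells' own transcripts was not tested. With 91 and 115 cells these shares do not set apart the low shares in mesothelial-like cells. Cthrc1 was at 13.6 CPM [11.8-15.6] in the double-negative mesothelial-like cells, above the upper limits of 7.02 and 8.12 CPM in these low-collagen cells. It was below the 22.0 and 33.5 CPM of all left-out cells with Pax3 and with Ptprc, whatever their collagen. The shares of Postn, Tnc and Cthrc1 in matrix-like cells were far above those in both kinds of left-out cells.

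Over all kept cells, the double-negative and the tdTomato+ eGFP-neg CAF differed in opposite directions for different members. Thbs1 and Fn1 were at least 2-fold higher in tdTomato+ eGFP-neg CAF, 2 of 10 members, where 2.28% of 8292 genes tested were. Spp1 and Cthrc1 were at least 2-fold lower, 2 of 10 members, where 2.32% of genes were. Thbs1 was at 291 CPM [287-294] in double-negative and at 791 CPM [783-799] in tdTomato+ eGFP-neg CAF, a log2 ratio of 1.44. Fn1 was at 1370 and 2989 CPM, a log2 ratio of 1.13. Both genes lay at the upper end of all genes tested, with 99.4% and 98.4% of them below. In Y-only cells alone the log2 ratio of Thbs1 was 1.00, just under the 2-fold limit.

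Cthrc1 was at 172 CPM in double-negative and 57.3 CPM in tdTomato+ eGFP-neg CAF (log2 ratio -1.58), and Spp1 at 489 and 187 CPM (-1.39). Postn, at 264 CPM [261-268] and 134 CPM [131-137], was just inside the 2-fold limit with a log2 ratio of -0.98, and passed it in Xist-only cells alone with -1.66. With equal weight for every cluster of at least 50 cells in both libraries, the immune-like one among them, Spp1 and Cthrc1 were inside the limit, at -0.80 and -0.85. The clusters large enough for this differ between comparisons. Tnc, Thbs2 and Sparc were close to even, with log2 ratios of 0.06, 0.05 and 0.12, and the median of all genes tested was 0.10.

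**Figure D2:**
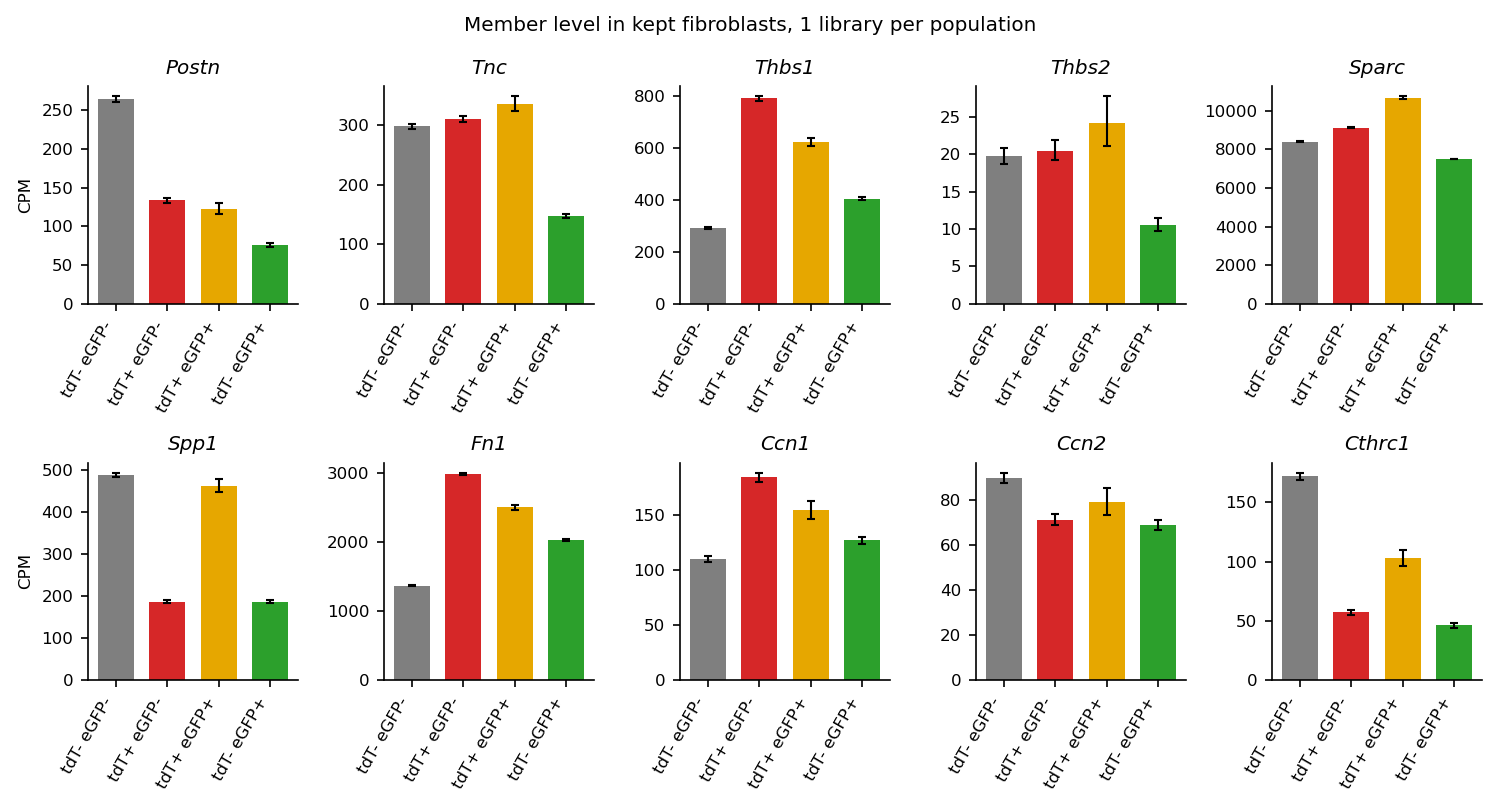
Level of each member (CPM) over all kept fibroblasts, 1 bar for each of the 4 libraries (tdT stands for tdTomato) with its 95% Poisson interval. Thbs1, Fn1 and Ccn1 are lowest in double-negative CAF (291, 1370 and 110 CPM), whereas Postn, Spp1, Ccn2 and Cthrc1 are highest there.

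Within matrix-like cells the picture differed for the members that define that class. Postn, 264 against 134 CPM over all cells, was 613 and 639 CPM within matrix-like cells, a log2 ratio of 0.06. For Spp1 the log2 ratio was -0.49 and for Cthrc1 -0.84 within matrix-like cells, both smaller in size than over all cells. Matrix-like cells were 36.3% of double-negative and 12.0% of tdTomato+ eGFP-neg CAF.

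Outside the matrix-like class Postn and Tnc were higher in tdTomato+ eGFP-neg CAF. Tnc was higher within that class too, at 893 CPM against 667 CPM in double-negative CAF. In cycling cells Postn was at 22.5 CPM in double-negative and 66.5 CPM in tdTomato+ eGFP-neg CAF, and Tnc at 39.9 and 173 CPM. In the same cycling cells Thbs2 was at 2.99 and 13.2 CPM, Thbs1 at 238 and 769 CPM and Fn1 at 1072 and 2375 CPM, which made 5 of 10 members at least 2-fold higher in the tdTomato+ eGFP-neg library, where 4.44% of 8259 genes tested were. Ccn2 was even at 43.6 and 41.8 CPM. The count of 5 is for cycling cells only and does not describe the other classes. That class was named from cell-cycle genes, and whether it held the same cell types in both libraries was not tested. Its Xist-only and Y-only cells numbered 313 and 483 in double-negative and 502 and 226 in tdTomato+ eGFP-neg CAF. The count was not made for each sex apart. In matrix-like cells the largest upward difference was that of Fn1, at 1690 and 2970 CPM, under 2-fold. In hypoxic-inflammatory-like cells Postn was at 38.7 and 68.0 CPM and Tnc at 144 and 301 CPM. Postn was thus lower in tdTomato+ eGFP-neg CAF when all cells were pooled and not lower in any of the 4 classes compared.

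For Fn1, Thbs1 and Ccn1 the higher level in tdTomato+ eGFP-neg CAF was found inside the classes as well. These 3 of 10 members were at least 1.5-fold higher in tdTomato+ eGFP-neg than in double-negative CAF in each of the matrix-like, mesothelial-like, cycling and hypoxic-inflammatory-like classes, where 2.05% of 7156 genes tested were. The median of all genes was itself shifted upwards within the classes, by 0.12 to 0.21 on the log2 scale. With ratios centred on those medians Fn1 alone kept the 1.5-fold difference in all 4 classes, 1 of 10 members, where 0.475% of genes did. Fn1 was 1690 and 2970 CPM in matrix-like cells, 1048 and 2304 CPM in mesothelial-like cells, 1072 and 2375 CPM in cycling cells and 1923 and 3497 CPM in hypoxic-inflammatory-like cells, with the double-negative library lower each time.

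**Figure D3:**
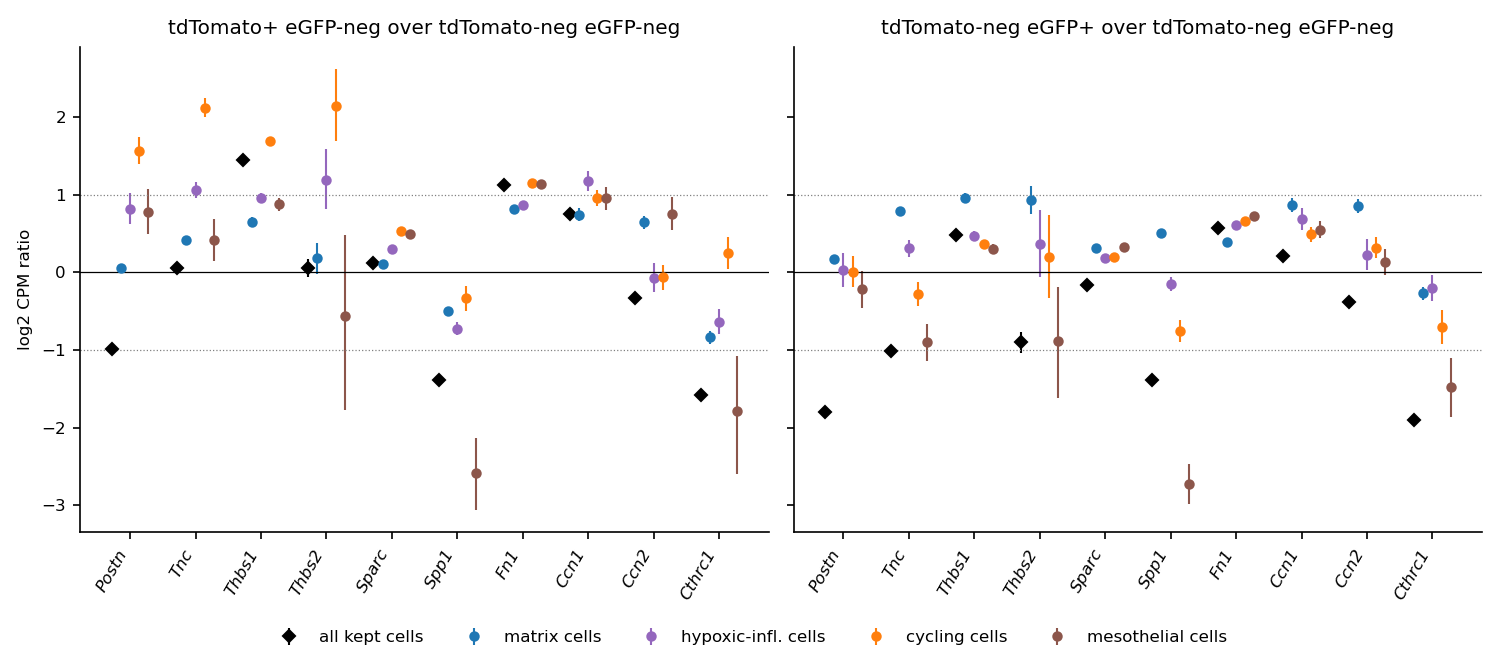
Log2 CPM ratio of each member over the double-negative library, for all kept cells (diamonds) and within 4 classes (circles), with 95% counting intervals. Dotted lines mark the 2-fold limits. For tdTomato+ eGFP-neg over double-negative CAF, Fn1 and Thbs1 lie above 0 in every class, while Postn lies near 0 in matrix-like cells and below 0 over all cells.

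The matrix-like class did not hold quite the same cells in each library, and markers of other types moved with the members. The summed level of 9 contractile genes in matrix-like cells was 2086, 2194, 3300 and 3215 CPM in double-negative, tdTomato+ eGFP-neg, double-positive and tdTomato-neg eGFP+ CAF, the same split between eGFP-neg and eGFP+ libraries as for Tnc and Spp1. That of 8 universal fibroblast markers was 1160, 1222, 480 and 540 CPM, the opposite split. The sum of 5 pericyte markers was 20.0, 56.4, 44.6 and 67.1 CPM, and that of 13 mesothelial markers 285, 133, 92.1 and 184 CPM, against 1446 to 2867 CPM in mesothelial-like cells. The part of these in the members' levels was not tested.

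The tdTomato-neg eGFP+ CAF were set against the same double-negative library, so that these values share it with those above. Postn, Tnc, Spp1 and Cthrc1 were at least 2-fold lower in tdTomato-neg eGFP+ CAF, 4 of 10 members, where 2.76% of 8250 genes tested were, and 0 members were at least 2-fold higher, where 0.703% of genes were. Postn was at 264 and 76.2 CPM, Tnc at 298 and 147, Spp1 at 489 and 187 and Cthrc1 at 172 and 46.2 CPM, with log2 ratios of -1.79, -1.02, -1.39 and -1.90. Matrix-like cells were 36.3% and 7.24% of these libraries. Within the matrix-like cells Postn, Tnc and Spp1 were higher in tdTomato-neg eGFP+ CAF, with log2 ratios of 0.17, 0.79 and 0.51, and Cthrc1 was lower with -0.27. With equal weight for every cluster of at least 50 cells in both libraries none of the 4 passed the limit. Tnc was also inside it in Xist-only cells, at -0.83, and after thinning, at -0.77. Thbs2, at -0.90 over all cells, passed the limit in Xist-only cells with -1.03.

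Between the libraries that differ in the eGFP mark among tdTomato+ cells, Spp1 was at least 2-fold higher in double-positive than in tdTomato+ eGFP-neg CAF, 1 of 10 members, where 0.111% of 8108 genes tested were, and 0 members were at least 2-fold lower, where 0.469% of genes were. Spp1 was at 464 CPM in double-positive and 187 CPM in tdTomato+ eGFP-neg CAF. Its log2 ratio was 1.31 over all cells, 1.75 in matrix-like, 2.27 in cycling and 0.49 in hypoxic-inflammatory-like cells, which were the largest class of both libraries. In mesothelial-like cells it was -0.90, from 6 UMIs in the double-positive library. The ratio over all cells was 0.98 in Y-only cells and 0.98 after thinning, both under the 2-fold limit. Within cycling cells Spp1 was at 203 CPM in double-positive, 42.1 in tdTomato+ eGFP-neg, 53.2 in double-negative and 31.5 CPM in tdTomato-neg eGFP+ CAF. Few cells carried it: after thinning 4.23% of the 189 double-positive cycling cells held Spp1, against 2.23% of the tdTomato+ eGFP-neg ones. As sequenced, at unequal depth, the shares were 8.47% and 10.1%. Of the 506 Spp1 UMIs of the double-positive cycling cells, 502 lay in 86 Xist-only cells. Only 98 double-positive cells were matrix-like, and the tenth of them richest in Spp1 held 75.0% of its UMIs. Cthrc1 was next, at 103 and 57.3 CPM with a log2 ratio of 0.85.

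Among eGFP-marked cells without tdTomato, set against the tdTomato+ eGFP-neg CAF, Tnc was at least 2-fold lower, 1 of 10 members, where 1.65% of 8236 genes tested were, and 0 members were higher, where 1.03% of genes were. Tnc was at 147 CPM in tdTomato-neg eGFP+ and at 310 CPM in tdTomato+ eGFP-neg CAF. Thbs1, Thbs2 and Postn followed with log2 ratios of -0.97, -0.96 and -0.81. The share of cells with Tnc after thinning was 7.18% and 15.3%. The log2 ratio of Tnc, -1.07, was -0.81 in Xist-only cells and -0.02 with equal weight for every cluster of at least 50 cells in both libraries. Within matrix-like cells Tnc was higher in tdTomato-neg eGFP+ CAF, 1155 against 893 CPM. In Y-only cells Postn and Spp1 also passed the 2-fold limit, at -1.23 and -1.18, where Spp1 was at -0.001 over all cells.

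Part of the member pairs were found together in matrix-like cells more often than their separate shares would give. Among 4628 matrix-like cells thinned to 1000 UMIs, the number of cells with both genes of a pair was divided by the number that independence within each library gives. For 24 of the 45 pairs of members the interval of this ratio lay above 1, for 0 it lay below 1, and the median ratio was 1.14. No such share is given for pairs of genes outside the members, so the count cannot be read as particular to them. Tnc and Spp1 were found together in 465 cells against 263 from independence, a ratio of 1.77 [1.61-1.94], and Spp1 and Ccn2 in 137 against 74.0, a ratio of 1.85 [1.55-2.19]. Thbs2 and Ccn2 had the highest ratio, 1.86 [1.21-2.72], but from 26 cells. Spp1 and Ccn1 had the lowest, 0.947.

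Ccn2, Tnc and Spp1 also kept company with contractile genes, and several members stood apart from Cxcl13. Ccn2 was found with Tagln, the smooth-muscle gene transgelin, in 270 cells against 115 from independence, a ratio of 2.34 [2.07-2.64], and with Acta2, smooth-muscle actin, at a ratio of 1.79. Tnc and Spp1 were found with Tagln at 1.53 and 1.61. Cxcl13, the chemokine whose promoter drives the reporter, was found with Tnc in 34 cells against 151 from independence, a ratio of 0.225 [0.156-0.315]. Its ratio with Ccn2 was 0.240, with Spp1 0.266, with Cthrc1 0.270 and with Thbs2 0.309, while with Sparc it was 0.999 and with Fn1 0.955, both with an interval that spans 1.

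**Figure D4:**
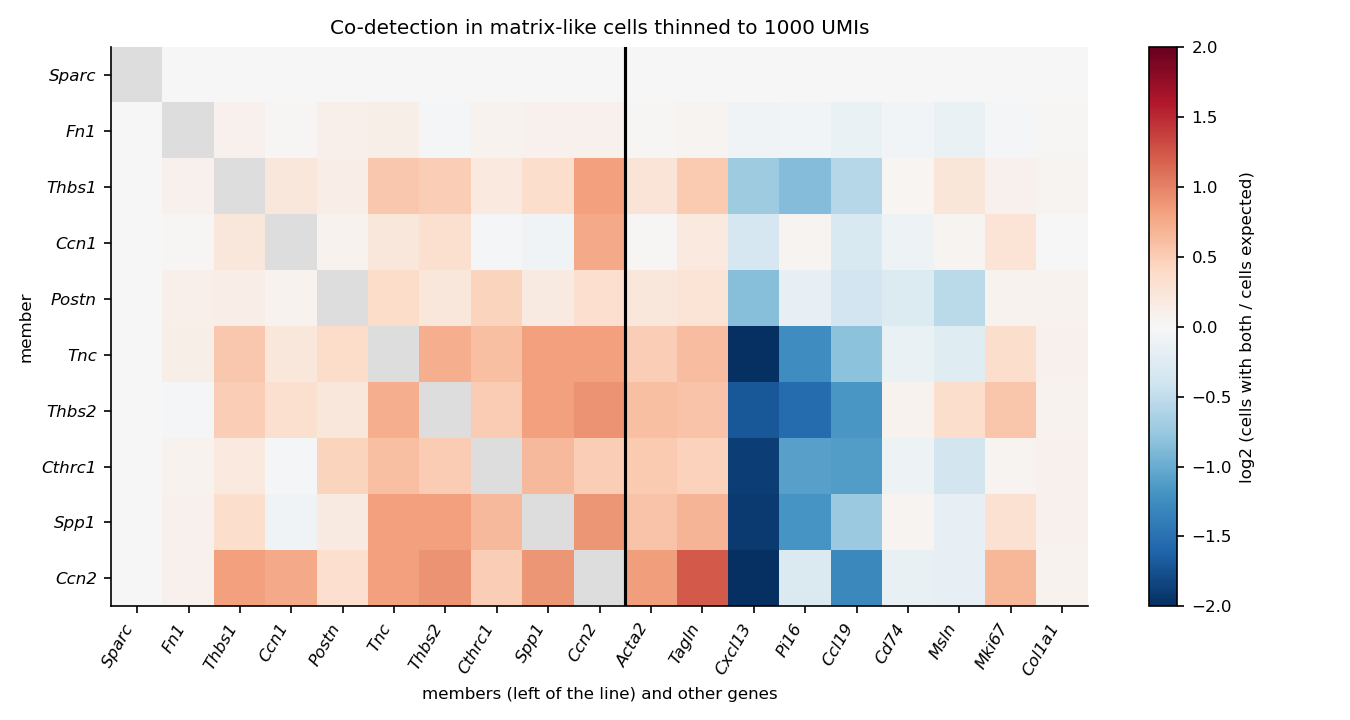
Log2 of the ratio of observed to independent co-detection in matrix-like cells thinned to 1000 UMIs, for each pair of members (left of the line) and for each member with 9 other genes (right of it). Red marks more and blue fewer cells with both genes than independence gives. Before the logarithm the ratio is highest for Ccn2 with Tagln, at 2.34, and lowest for Cxcl13 with Tnc, at 0.225.

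The separation of Tnc from Cxcl13 was present in each library at 3000 UMIs per cell. The ratio was 0.37 in double-negative, 0.46 in tdTomato+ eGFP-neg, 0.43 in double-positive and 0.52 in tdTomato-neg eGFP+ CAF, where the double-positive value rests on 2 cells. Ccn2 with Tagln gave 1.77, 2.22, 1.66 and 1.36, and Tnc with Spp1 gave 1.63, 1.87, 1.23 and 1.24. Ccl19, another chemokine of stromal cells, stood with Ccn2 at 0.411 and with Tnc at 0.564, and Pi16, a marker of universal fibroblasts, with Thbs2 at 0.344 and with Tnc at 0.423.

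Ccn2 and Postn differed between the male and female cells of the matrix-like class in each library that allowed the split. Cells with a Y-linked transcript and no Xist (Y-only) and cells with Xist and no Y-linked transcript (Xist-only) numbered 752 and 1032 in the double-negative, 201 and 160 in the tdTomato+ eGFP-neg, and 142 and 104 in the tdTomato-neg eGFP+ library. The double-positive library had too few. These 2 of 10 members were at least 1.5-fold higher in Y-only cells of all 3 libraries, where 0.989% of 7789 genes tested were. Since the cells came from pooled mice, the sex of a cell and the animal it came from cannot be told apart.

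Ccn2 was at 276 CPM in Y-only and 86.6 CPM in Xist-only double-negative cells, at 382 and 147 CPM in tdTomato+ eGFP-neg cells and at 415 and 102 CPM in tdTomato-neg eGFP+ cells. Every Y-only value lay above every Xist-only value. Postn was at 859 and 488 CPM, 857 and 348 CPM, and 848 and 552 CPM in the same order, again without overlap. Median depth was 10223 against 9230 UMIs, 10698 against 9150 and 12225 against 11723, higher in the Y-only cells each time. The direction was nearly general: Sparc, Fn1, Cthrc1, Thbs2 and Tnc were also higher in the Y-only cells of each library, with log2 ratios of 0.32 to 1.71, as were Thbs1 with 0.27 to 0.43 and Ccn1 with 0.16 to 0.30. Spp1 alone among the members did not keep its direction, with 0.47, -0.35 and -1.09.

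**Figure D5:**
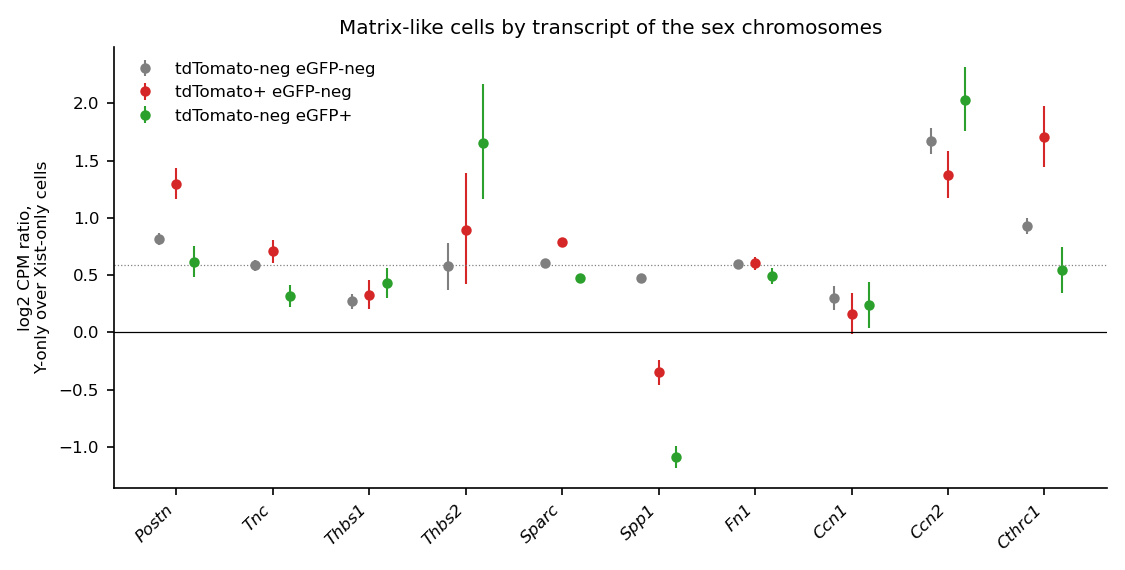
Log2 CPM ratio of each member, Y-only over Xist-only matrix-like cells of 3 libraries, with 95% counting intervals; the dotted line marks a 1.5-fold difference. Ccn2 lies at 1.38 to 2.03 and Postn at 0.62 to 1.30, while Spp1 lies on both sides of 0.

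Across 21 groups of at least 50 cells, each a cluster within a library, each member was set against the 2919 genes with a mean of at least 50 CPM. The genes with the highest Pearson correlation are named. Not all groups were of the fibroblast classes. Immune-like cells of the double-negative and tdTomato+ eGFP-neg libraries (64 and 50 cells) and melanoma-like cells of the double-negative library (116 cells) were among them. These groups share libraries and depth, so the values are descriptions. Sparc stood nearest to Col1a2 (0.98), Col3a1 (0.97) and Loxl2 (0.97), and Ccn2 to Serpinh1 (0.93), the collagen chaperone, Ppic (0.92) and Tmed3 (0.92). Tnc stood nearest to Tagln (0.96), Timp1 (0.92) and Pofut2 (0.91), and Cthrc1 to Tmed2 (0.89), Tagln (0.89) and Ostc (0.88). Tagln is therefore the gene that Tnc and Cthrc1 share.

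Among the genes nearest to Postn were Igf1 and Ppic, both at 0.94, and Thbs2 stood nearest to Dlc1 (0.94), Col4a1 (0.93) and Gpm6b (0.93). Thbs1 stood nearest to Dclk1 (0.95), Rai14 (0.94) and Fzd1 (0.94), Fn1 to Lpp (0.97), Cacna2d1 (0.96) and Lrmda (0.95), and Ccn1 to Dbn1, Ext1 and Dse, all at 0.97. Spp1 stood nearest to Cxcl9 (0.91), Serf1 (0.86) and Prdx4 (0.85). Among the members themselves the nearest pair was Thbs1 and Fn1 at 0.89, followed by Spp1 and Cthrc1 at 0.87 and Tnc and Cthrc1 at 0.85, and the most distant was Spp1 and Ccn1 at 0.05.

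Other genes of the matricellular group, receptors and partners were counted from lists. Between tdTomato+ eGFP-neg and double-negative CAF over all cells, of 14 other matricellular genes tested 2 were at least 2-fold higher and 3 lower. Their median log2 ratio was 0.04 against 0.10 over all genes. Of all 8292 genes tested, 2.28% were higher and 2.32% lower by the same limit. Among the 14 the largest were Smoc2 at -3.48, Tnn at 2.24, Ccn3 at 1.61 and Sparcl1 at -1.39. Of 15 receptors and related genes, 2 were higher and 0 lower with a median of 0.56, Itga9, an integrin subunit that binds tenascin C and osteopontin, at 1.54 and Cd44, an osteopontin receptor, at 1.03. Of 10 YAP and TEAD genes 0 were called in either direction, with a median of 0.23. The TGF-beta list held ligands, receptors and Ltbp genes as well as response genes. Of its 9 genes tested 2 were higher and 1 lower, with a median of 0.41, namely Smad7 at 1.21, Ltbp2 at 1.14 and Ltbp1 at -1.50.

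Between matrix-like and mesothelial-like cells in every library, 8 of 13 matrix assembly and protease genes were at least 2-fold higher and 0 lower. Their median log2 ratio was 1.30 against 0.04 over all genes. Of all 7865 genes tested, 6.9% were higher and 5.14% lower by the same rule. Mmp2, the gelatinase, was at 4.13, Adam12 at 2.44 and Lox, a collagen cross-linking enzyme, at 1.96. Of 9 genes of the TGF-beta list 3 were higher, Ltbp1 at 5.91, Ltbp2 at 4.22 and Tgfb1, a ligand, at 1.80. Ltbp1 binds latent TGF-beta into the matrix. Of 15 receptors 4 were higher and 2 lower, with Sdc1 at 2.54, Itga9 at 2.40 and Itga5, the fibronectin receptor subunit, at 1.99, and Sdc4 at -1.56. Of 15 immediate-early genes 0 were higher and 1, Atf3, was lower, with a median of -0.29.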

How the data were processed

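Single-cell RNA was measured in 4 libraries, 1 for each sorted population. The deposited count tables hold UMI counts per gene and barcode, made by the authors with Cell Ranger on GRCm39 (version 10.0.0 in the submitters' processing notes, 8.0.0 in the table headers) and not normalized. Cells were kept with 500 to 6000 genes, at most 10% mitochondrial UMIs, no Ptprc or Pax3 UMI and at least 3 UMIs of Col1a1, Col1a2 and Col3a1 together. Counts were pooled to CPM, with exact Poisson intervals for levels and exact (Clopper-Pearson) intervals for shares at 95%, and total UMIs per library ranged from 10071954 to 90259852. PCR and sampling errors beyond counting are not covered. Clusters came from Seurat 5.3.0 (R 4.3.3, 25 components) on 2000 variable genes less the members and lists, with the naming markers left in. Other values came from Python 3.11.15, numpy 2.4.6, scipy 1.17.1 and pandas 2.3.3. Doublets were kept, and removal by Scrublet score (scanpy 1.11.5) was an alternative. Other alternatives were other cluster settings, gates, denominators, thinning, cells of 1 sex and leaving out 1 library. The counting steps were tested on simulated data. Genes named are the 10 members, up to 4 of each list with the largest absolute log2 ratio, and the 3 genes most like each member, of which 1 is not reported here. The members and lists were chosen with earlier results of these data known.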

Additional observations from a re-analysis of the deposited data

Results flagged for a closer look

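For 5 members the ratio between populations pointed in opposite directions in a pair of classes and lay at least 2 apart on the log2 scale. Other members also turned, by less. The share of all genes that do so was not computed, so the count cannot be read as particular to the members. Each of these is 1 library against 1 library, and the differences were not tested. Spp1 in tdTomato-neg eGFP+ over double-negative CAF had a log2 ratio of 0.51 in matrix-like cells and -2.72 in mesothelial-like cells, 3.23 apart. Tnc in tdTomato-neg eGFP+ over tdTomato+ eGFP-neg CAF had 0.37 in matrix-like and -2.40 in cycling cells, 2.77 apart. Thbs2 in the same comparison had 0.75 and -1.95, 2.69 apart. Thbs1 in tdTomato-neg eGFP+ over double-negative CAF had 0.96 in matrix-like and -1.48 in universal-like cells, 2.44 apart. The value in universal-like cells rests on 8 Thbs1 UMIs in 54 tdTomato-neg eGFP+ cells. Cthrc1 in tdTomato+ eGFP-neg over double-negative CAF had 0.25 in cycling and -1.79 in mesothelial-like cells, 2.03 apart.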

How the results depend on the processing

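Equal weight for every cluster of at least 50 cells in both libraries was set in place of the mix found in each library. With it 0 members instead of 4 were called between tdTomato-neg eGFP+ and double-negative CAF. The log2 ratios of Postn, Tnc and Spp1 turned to 0.046, 0.64 and 0.28. The mean over cells of per-cell CPM gave 2 there (Postn and Cthrc1). Between double-positive and tdTomato+ eGFP-neg CAF, 1 member was called, against 0 after thinning to 1000 UMIs and 0 in Y-only cells. Between tdTomato-neg eGFP+ and tdTomato+ eGFP-neg CAF, 1 was called, against 2 after thinning, 3 in Y-only cells, 0 in Xist-only cells and 0 with equal cluster weight. Of 3 members higher in all 4 classes of tdTomato+ eGFP-neg over double-negative CAF, 1 was left after centring, an alternative chosen after seeing the data. Between tdTomato+ eGFP-neg and double-negative CAF the count was 3 to 5 over the alternatives, against 4, with equal cluster weight giving 0 lower. The matrix-like against mesothelial-like count was 6 to 9, against 6, and 6 to 7 without 1 library in turn. Co-detection above independence held for 24 pairs at 1000 UMIs, 22 at 3000 and 28 as sequenced. The cause of these changes was not tested, other than that equal weight removes the difference in class mix. No paired analysis was possible because each population is 1 library. Scarce members, Thbs2 above all, rest on few UMIs in mesothelial-like cells, and the double-positive library of 853 cells limits every value in it.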

Other observations

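Among the cells left out of the fibroblasts, 472 held Pax3 UMIs, with a median of 20006 UMIs per cell, and their Spp1 level was 464 CPM. By library it was 470, 400, 388 and 503 CPM in double-negative, tdTomato+ eGFP-neg, double-positive and tdTomato-neg eGFP+ cells. The 92 of them with little collagen had 559 CPM of Spp1, 208 of Sparc and 22.4 of Fn1, and 0 UMIs of Tnc. The 423 left-out cells with Ptprc had 322 CPM of Spp1. In the 130 of these with little collagen, Fn1 was at 445 CPM, Thbs1 at 238 and Sparc at 154.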
